A study of Homo sapiens with 6 samples.

Results

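TRIM28, SETDB1 and the HUSH complex belong to a machinery that silences retroelements and other sequences by methylating lysine 9 of histone H3 (H3K9). The RNA of its 10 core genes was followed here: TRIM28, SETDB1, ATF7IP, the HP1 genes CBX1, CBX3 and CBX5, the HUSH genes MPHOSPH8, FAM208A (now named TASOR) and PPHLN1, and MORC2. The genes were taken by symbol. All 10 were among the 56638 gene symbols counted, and all 10 passed the filter on low counts, which kept 16369 genes.

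The cells were HCT116, an established human colorectal cancer line, grown in RPMI-1640 with 10% fetal bovine serum and used between passages 16 and 19. The control group comprised 3 libraries labelled as control genotype. The other group comprised 3 libraries labelled ZFP90 knockout, made with guide RNAs against exon 3 of ZFP90, a KRAB zinc-finger gene. The labels name no other allele or agent, do not say how the control cells were treated or whether the knockout was 1 clone, and do not say that replicates were separate cultures. The p-values therefore rest on library-to-library spread alone, some or all of which may be technical.

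In this pathway, KRAB zinc-finger proteins bind DNA and recruit TRIM28 (KAP1) through their KRAB domain. TRIM28 acts as a SUMO ligase on itself, and its modified form recruits the H3K9 methyltransferase SETDB1, which ATF7IP binds and stabilises, and the NuRD deacetylase complex. HP1 proteins bind methylated H3K9, and HUSH spreads the mark over retroelements with SETDB1 and the ATPase MORC2. The comparison therefore asks how the genes of a KRAB protein's own effector machinery were expressed when the KRAB gene was targeted.

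ZFP90 RNA itself went up rather than down in the knockout-labelled libraries. It measured 47.5, 47.4 and 43.1 CPM (read counts scaled to the size of each library) in control replicates 1 to 3 and 86.9, 80.5 and 89.8 CPM in the knockout-labelled libraries. The log2 fold change was 0.90 (SE 0.066, edgeR adjusted p = 5.10e-05). Gene-level counts include reads from transcripts with a disrupted exon, so they do not show whether ZFP90 protein was lost, and directions below refer to the labels.

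Differences across the machinery were small. TRIM28 and CBX5 rose, none of the 10 genes fell, and the other 8 did not pass the test. Across all tested genes, 21.1% passed the same test in either direction, 9.73% up and 11.4% down in the knockout-labelled libraries, so 2 of 10 is close to that background. No member had a negative change at an unadjusted p under 0.05 in edgeR, and DESeq2 and limma-voom also called 0 lower. The log2 fold changes of the 10 genes ran from -0.09 to 0.29, with a median of 0.08 against 0.01 over all tested genes. Their median absolute log2 change was 0.09 against 0.18 over all genes, and their median standard error was 0.0573 against 0.108. The groups did not overlap for 5 of the 10 genes, against 41.2% of all tested genes.

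**Figure D1:**
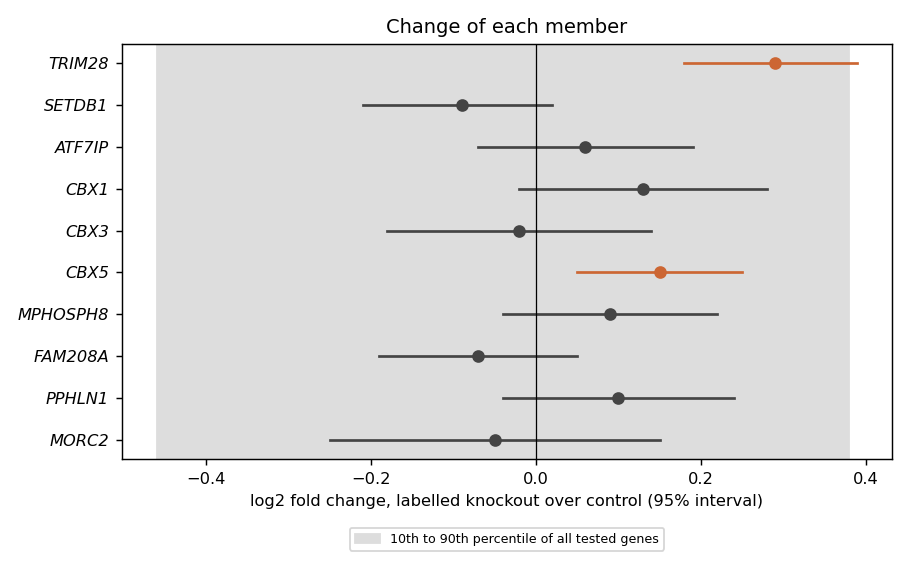
Log2 fold change (horizontal axis) of each of the 10 genes, knockout-labelled libraries over control, with its 95% interval from edgeR; orange marks an adjusted p under 0.05, and the grey band spans the 10th to 90th percentile of all tested genes, -0.46 to 0.38. All 10 points lie inside the band, and the intervals of TRIM28 and CBX5 alone exclude 0.

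CBX5 was a called gene whose start lies back to back with that of a neighbour, HNRNPA1, an RNA-binding protein gene that was not called, so the sequence between these starts is shown with that of a second such pair, PPHLN1 and ZCRB1, of which neither was called. Capitals mark matches, on either strand, to any of 8 short motifs searched by letters: the CCAAT box itself, a GC box as GGGCGG, an ETS motif as CCGGAAG, a YY1 motif as AAGATGGC, a CRE as TGACGTCA, a CHR as TTTGAA, an E-box as CACGTG and a TATA box as TATAAA. The sequences are from RefSeq promoters (GRCh38.p14), read 5′ to 3′ on the strand of CBX5 or PPHLN1.
CBX5, chr12:54280134-54280192, minus strand: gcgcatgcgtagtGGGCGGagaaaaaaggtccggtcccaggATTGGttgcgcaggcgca
PPHLN1, chr12:42326119-42326166, plus strand: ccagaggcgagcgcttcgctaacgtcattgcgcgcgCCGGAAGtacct

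The 59 bases between the CBX5 and HNRNPA1 starts held 6 CpG sites, 1 GC box and 1 CCAAT motif, the latter in its reverse form. Over 35116 RefSeq promoters, the 59 bases just before the start held a GC box in 22.9% and a CCAAT motif in 9.32%. The 48 bases between the RefSeq PPHLN1 start and the ZCRB1 start held 8 CpG sites and 1 ETS motif. That motif lay in the 48 bases before the start in 3.54% of promoters. These matches describe letters and are no evidence of binding.

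RefSeq windows from 250 bases before to 50 after a start were matched for 9 of the 10 genes, 20 windows in all. The gene without a window was TRIM28. CCAAT occurred in 12 of the 20 windows against 34.6% of all promoters, GGGCGG in 7 against 45%, CCGGAAG in 3 against 10.3%, AAGATGGC in 2 against 2.89%, TTTGAA in 5 against 15.2%, CACGTG in 3 against 7.26%, TATAAA in 4 against 11.5% and TGACGTCA in 0 against 1.85%. Several windows belong to the same gene, most of all to ATF7IP, and some overlap, so they are not independent. The counts therefore weigh the genes unequally.

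TRIM28, the corepressor that links KRAB proteins to the rest of the machinery, was the most expressed of the 10 genes per exon length and had the largest change. It maps to chromosome 19, 58544091 to 58550722, plus strand, in GENCODE 29 on GRCh38 as for all gene positions below. It measured 307, 320 and 310 CPM in the controls and, in the knockout-labelled libraries, 376, 389 and 376 CPM. The lowest library labelled knockout lay well above the highest control. The log2 fold change was 0.29 (SE 0.045, 95% interval 0.18 to 0.39, edgeR adjusted p = 0.00291), a rise of 21.9%. The call held under every alternative processing tried, with log2 fold changes from 0.22 to 0.30.

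SETDB1, the methyltransferase recruited by TRIM28, was not called and had a small difference of the opposite sign. It maps to chromosome 1, 150926263 to 150964744, plus strand and measured 61.0, 63.7 and 61.2 CPM in the controls and, in the knockout-labelled libraries, 57.2, 58.8 and 58.2 CPM. These groups did not overlap, but the log2 fold change of -0.09 (SE 0.052, 95% interval -0.21 to 0.02) did not pass the test (adjusted p = 0.230).

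SETDB1 shares 948 bases of exon with CERS2, a ceramide synthase gene on the opposite strand, and the strand setting of the counting is not given in the sources used here. CERS2 fell from 80.1 ± 1.40 to 48.3 ± 1.46 CPM (SD, n = 3 each; log2 fold change -0.73, SE 0.053, adjusted p = 4.77e-05). What share of reads in the common stretch went to either gene was not tested.

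ATF7IP, which binds and stabilises SETDB1, maps to chromosome 12, 14365632 to 14502935, plus strand. It measured 44.7, 45.4 and 41.9 CPM in the controls against 46.1, 46.7 and 44.9 CPM, with overlapping groups. Its log2 fold change was 0.06 (95% interval -0.07 to 0.19, adjusted p = 0.507), and -0.01 with scaling by library size alone.

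Ratios within a library do not depend on scaling between libraries. The log2 ratio of TRIM28 to SETDB1 reads was 2.33, 2.33 and 2.34 in the controls and 2.72, 2.73 and 2.69 in the knockout-labelled libraries. Controls spanned 0.01 on this scale, while the group means differed by 0.38. The ATF7IP to SETDB1 ratio was -0.45, -0.49 and -0.55 in the controls against -0.31, -0.33 and -0.37, a difference of 0.16, again with no overlap. The exact permutation test gave p = 0.100 for each, two-sided, the smallest p that 3 against 3 libraries allow, and 0.267 after Benjamini-Hochberg adjustment over the 8 ratios computed.

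HP1 proteins read methylated H3K9. Of their 3 genes, CBX5 (HP1 alpha) was called. It maps to chromosome 12, 54230940 to 54280133, minus strand and measured 264, 257 and 250 CPM in the controls against 288, 285 and 284 CPM. The groups did not overlap. The log2 fold change was 0.15 (SE 0.044, 95% interval 0.05 to 0.25, adjusted p = 0.0386). This call lay near the threshold. It was lost with DESeq2 (adjusted p = 0.100), with upper quartile scaling (0.115), with library size alone (0.382), with no filter on low counts (0.0693) and on leaving out control 1 (0.0816), control 3 (0.118) or the knockout-labelled library 1 (0.126), 2 (0.0869) or 3 (0.100). It held without control 2 (0.0254).

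HNRNPA1, whose start lies 60 bases from that of CBX5, averaged 313 ± 15.8 CPM in the controls against 313 ± 25.6 CPM with the knockout label (SD, n = 3 each). Its log2 fold change was -0.00 (95% interval -0.16 to 0.15), and its sign varied with the processing. HNRNPA1 has processed pseudogenes, so its counts are uncertain. The log2 ratio of CBX5 to HNRNPA1 reads was -0.17, -0.35 and -0.34 in the controls and -0.01, -0.26 and -0.11 in the knockout-labelled libraries. Those ranges overlapped, and the difference of 0.16 had an exact permutation p of 0.200.

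CBX1 (HP1 beta) maps to chromosome 17, 48070052 to 48101521, minus strand. It measured 103 CPM in each of the 3 controls and 115, 102 and 121 CPM in the knockout-labelled libraries. Only the knockout-labelled library 2 stayed at the control level. Its log2 fold change of 0.13 (SE 0.066, 95% interval -0.02 to 0.28) did not pass the test (adjusted p = 0.192); without that library it was 0.20 (adjusted p = 0.0464).

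CBX3 (HP1 gamma) maps to chromosome 7, 26201162 to 26213356, plus strand. It measured 286, 233 and 271 CPM in the controls and, in the knockout-labelled libraries, 258, 259 and 263 CPM. Control 2 was the lowest of the 6 libraries, and the median gene of chromosome 7 stood at 81.1% of the other controls there. The log2 fold change was -0.02 (SE 0.072, 95% interval -0.18 to 0.14, adjusted p = 0.872). It was -0.10 without control 2 (adjusted p = 0.141) and -0.12 with control 2 offset by chromosome (0.0554).

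Copies of CBX3 took few reads. CBX3P9 had 276 reads in all controls and 305 in all knockout-labelled libraries, CBX3P2 had 75 and 67, and CBX3 itself 11816 and 11936. CBX3 and HNRNPA2B1 overlap head to head by 368 bases of exon. HNRNPA2B1, another RNA-binding protein gene, measured 978, 846 and 1008 CPM in the controls and 918, 990 and 925 CPM in the knockout-labelled libraries. Both groups averaged 944 CPM, with control 2 the lowest library. Without control 2 the log2 fold change was -0.07 (edgeR adjusted p = 0.337). The log2 ratio of CBX3 to HNRNPA2B1 reads, both on chromosome 7, differed by -0.02 (exact permutation p = 0.800).

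The share of each HP1 gene overlapped between groups, for CBX3 and CBX5 through control 2 alone. Per exon length, CBX3 made up 52.9% ± 2.58 of HP1 transcripts in the controls and 50.3% ± 1.30 in the knockout-labelled libraries (SD, n = 3 each). CBX1 made up 31.2% ± 1.76 and 32.7% ± 1.82, and CBX5 16.0% ± 0.889 and 17.0% ± 0.568. The 3 exact permutation p-values were 0.200, 0.300 and 0.200. In controls 1 and 3 CBX3 made up 54.8% and 53.9%, against 49.4% to 51.8% in the knockout-labelled libraries. CBX5 made up 15.6% and 15.3%, against 16.5% to 17.6%. CBX1 overlapped without control 2 as well. The part of control 2, short of reads on the chromosome of CBX3, was not tested. The shares also depend on the length used. Per kb of the longest annotated transcript, the controls averaged 124 CPM for CBX3, 42.6 for CBX1 and 22.3 for CBX5. The log2 ratio of CBX1 to CBX5 reads differed by -0.03 (exact p = 0.900), and that of CBX3 to CBX5 by -0.17 (exact p = 0.200), with control 2 at -0.14 among the knockout-labelled libraries (-0.16 to -0.11).

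HUSH joins a chromodomain reader, a scaffold and an RNA-binding subunit. MPHOSPH8 (MPP8), the chromodomain reader, maps to chromosome 13, 19633681 to 19673459, plus strand. It measured 76.3, 81.1 and 83.3 CPM in the controls and, in the knockout-labelled libraries, 88.7, 83.7 and 83.9 CPM. The groups were separated only narrowly, and the log2 fold change of 0.09 (95% interval -0.04 to 0.22) did not pass (adjusted p = 0.281).

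FAM208A (TASOR), the scaffold, maps to chromosome 3, 56620133 to 56683237, minus strand. It measured 123, 121 and 120 CPM in the controls against 119, 109 and 119 CPM. All 3 knockout-labelled libraries lay below the controls, yet the log2 fold change of -0.07 (95% interval -0.19 to 0.05) did not pass (adjusted p = 0.378). CCDC66, which shares 287 bases of exon with FAM208A on the other strand, had a log2 fold change of 0.28 (adjusted p = 0.0779).

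PPHLN1 (periphilin), the RNA-binding subunit, maps to chromosome 12, 42238447 to 42459715, plus strand. Its 62.3, 70.2 and 65.8 CPM in the controls overlapped the 68.0, 73.1 and 71.2 CPM in the knockout-labelled libraries. PPHLN1 had a log2 fold change of 0.10 (95% interval -0.04 to 0.24, adjusted p = 0.292). ZCRB1, which shares the ETS-bearing start region, had a log2 fold change of -0.04, and YAF2, which starts 98 bases from the most upstream PPHLN1 start, had -0.29 (adjusted p = 0.0608). PRICKLE1, which overlaps the PPHLN1 end by 438 bases of exon, fell from 1.73 to 0.663 CPM (log2 fold change -1.40, adjusted p = 0.00872).

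MORC2, the ATPase that works with HUSH, maps to chromosome 22, 30925130 to 30968298, minus strand. It measured 41.0, 37.6 and 45.8 CPM in the controls and, in the knockout-labelled libraries, 41.0, 36.9 and 42.3 CPM. The groups overlapped almost fully. MORC2 had a log2 fold change of -0.05 (SE 0.087, 95% interval -0.25 to 0.15, adjusted p = 0.733), which turned to 0.03 without control 3 and to 0.01 without the knockout-labelled library 2. Its antisense neighbour MORC2-AS1 had 9 reads in all controls and 10 in all knockout-labelled libraries, and TUG1, starting 947 bases away, had a log2 fold change of -0.06.

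Ratios among the HUSH genes were compared in the same way. MPHOSPH8 reads over FAM208A reads gave log2 ratios of -0.69, -0.58 and -0.53 in the controls and -0.43, -0.38 and -0.51 in the knockout-labelled libraries. The difference was 0.16, with no overlap (exact permutation p = 0.100, 0.267 adjusted over 8 ratios). The PPHLN1 to FAM208A ratio differed by 0.17 (exact p = 0.200).

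**Figure D2:**
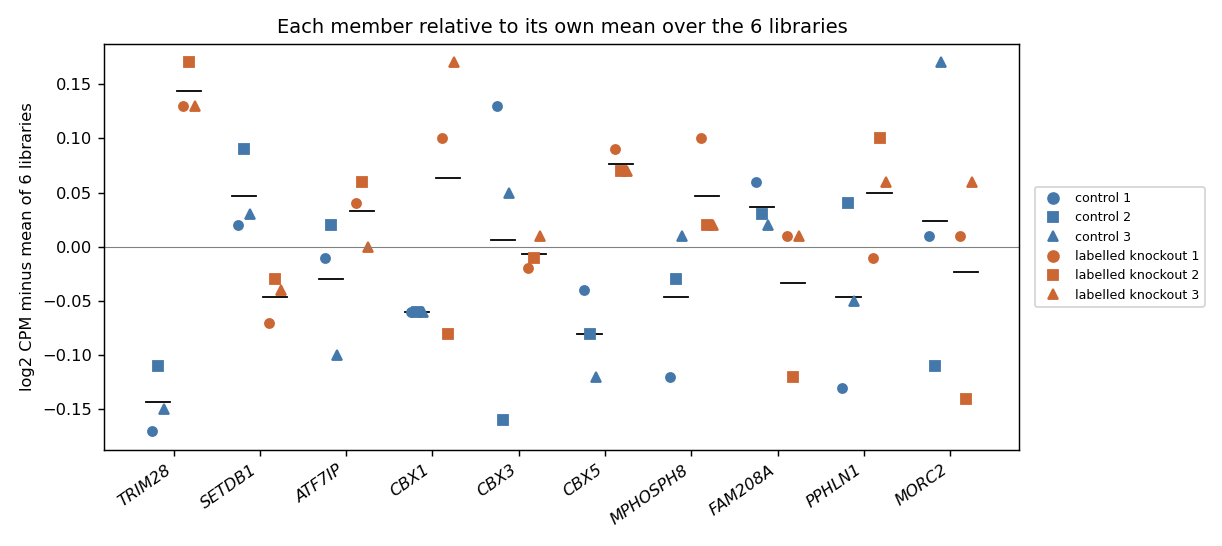
Log2 CPM of each gene minus its mean over the 6 libraries (vertical axis), 1 symbol per library and a line at each group mean. TRIM28 separates the groups most, from -0.17 to -0.11 in the controls and from 0.13 to 0.17 in the knockout-labelled libraries, while CBX3 and MORC2 vary more within the controls than between groups.

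**Figure D3:**
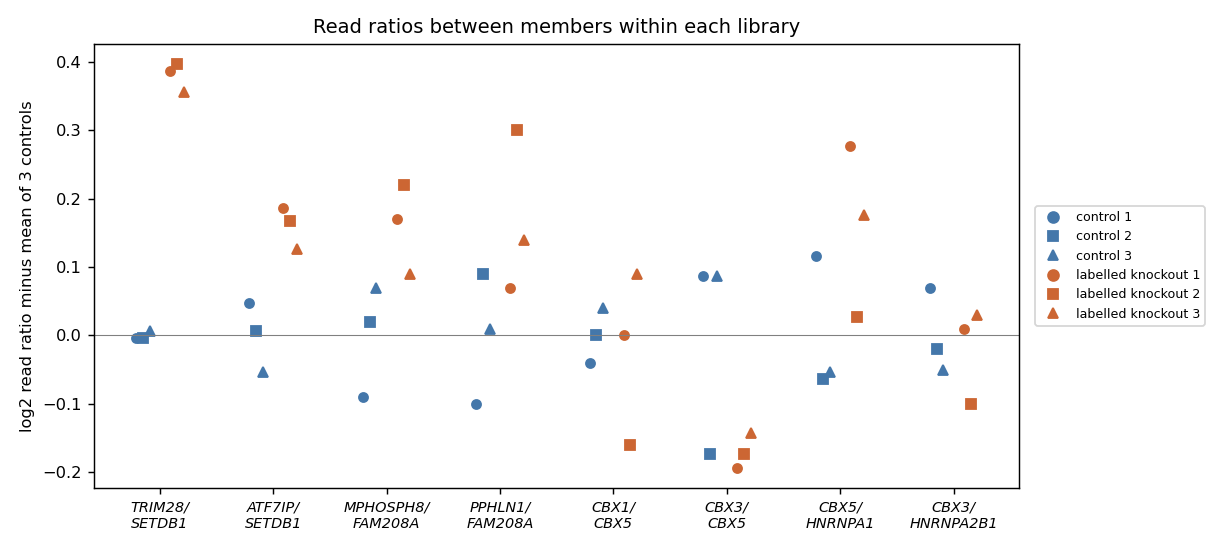
Log2 ratio of reads of one gene to another within each library, minus the mean of the 3 controls (vertical axis), 1 symbol per library. The TRIM28 to SETDB1 ratio lies 0.38 higher on average in the knockout-labelled libraries, with controls spread by only 0.01, and both ratios to HNRNP neighbours overlap between groups.

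The order of levels, in CPM per kb of annotated exon, ran over more than an order of magnitude in the controls. TRIM28 stood at 77.5 ± 1.65, CBX3 at 56.8 ± 5.86 and CBX1 at 33.3 ± 0.0311 (SD, n = 3 each). CBX5 followed at 17.1 ± 0.452 and MPHOSPH8 at 16.3 ± 0.726, whose control ranges overlapped, as did those of PPHLN1 and MORC2 in the knockout-labelled libraries. FAM208A stood at 12.4 ± 0.153 and SETDB1 at 8.74 ± 0.213, and the lowest were MORC2 at 6.63 ± 0.658, PPHLN1 at 5.44 ± 0.322 and ATF7IP at 3.34 ± 0.141. The abundant genes were thus the corepressor and the HP1 readers, and the methyltransferase and its partner were among the lower ones. The order was the same in the knockout-labelled libraries, where TRIM28 stood at 94.4 and ATF7IP at 3.48. Dividing by the longest annotated transcript instead put CBX3 (124) above TRIM28 (105) and PPHLN1 (11.1) above MORC2 (8.01) in the controls.

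**Figure D4:**
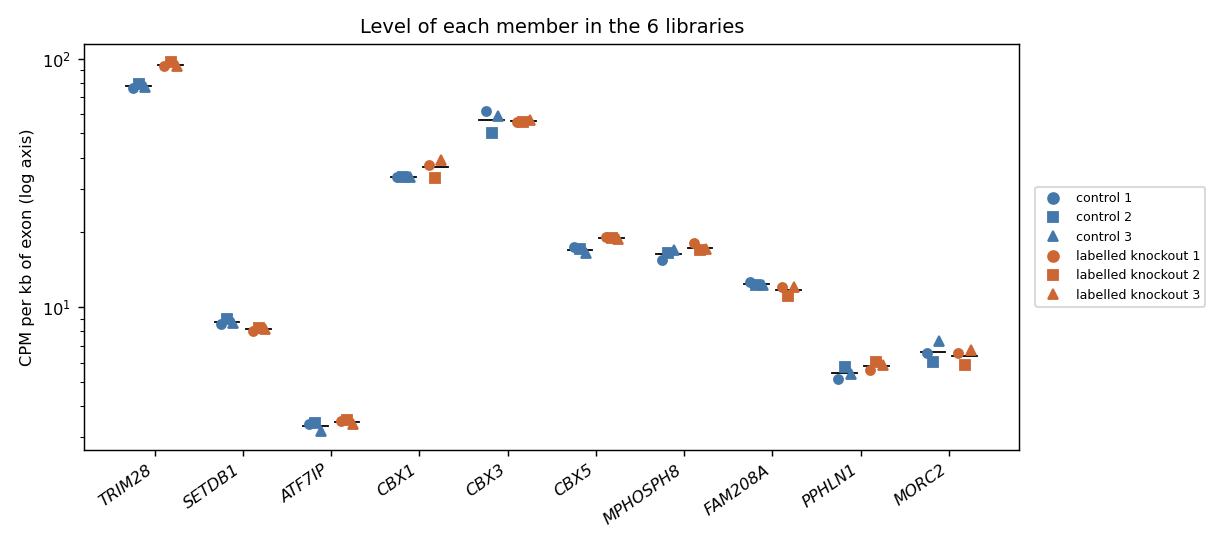
Level of each gene in CPM per kb of annotated exon (logarithmic vertical axis), 1 symbol per library and a line at each group mean. TRIM28 lies highest, at 77.5 in the controls and 94.4 in the knockout-labelled libraries, and ATF7IP lowest, at 3.34 and 3.48.

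Genes with the profile most like a called member over the 6 libraries were found by the root mean square difference of centred log2 CPM. For TRIM28 these were LGALS3BP (0.013), PSME3 (0.018) and GAA (0.020), with log2 fold changes of 0.30, 0.26 and 0.26. For CBX5 they were WDR74 (0.007), HNRNPUL2 (0.009) and SMCHD1 (0.012), with log2 fold changes of 0.15, 0.16 and 0.16, of which SMCHD1, a chromatin protein of X inactivation, was called (adjusted p = 0.0344). The SMCHD1 call was lost with DESeq2 (0.0947), library size alone (0.332), upper quartile scaling (0.0917), no filter on low counts (0.0692) and without any 1 library other than control 2. The member nearest TRIM28 was CBX5, at 0.075. The nearest of all tested genes is bound to be at least as close as the nearest member. This comparison therefore cannot show whether members moved together, and the like fold changes follow from the choice by profile.

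Genes that work beside the 10 showed changes in both directions. Over all tested genes, 9.73% were called higher and 11.4% lower, the background for each list count here and below. No list was tested against it. Among 12 tested accessory factors of HUSH and TRIM28, 5 rose and 0 fell, with a median log2 fold change of 0.14 against 0.01 over all genes. KIAA1551 (RESF1), a retroelement silencing factor that binds SETDB1, measured 218, 197 and 248 CPM in the controls and, in the knockout-labelled libraries, 354, 318 and 341 CPM. It rose by 0.61 on the log2 scale (SE 0.082, adjusted p = 0.00137). DAXX, the histone H3.3 chaperone, rose from 56.6, 54.5 and 54.1 CPM to 74.2, 66.6 and 69.4 CPM (log2 fold change 0.35, adjusted p = 0.00441). The others were CHEK2, a checkpoint kinase (0.28), and, outside the naming rule and named after their values were seen, SMARCAD1 (0.22) and PGAM5 (0.20). The count fell to 2 on leaving out control 1, control 3 or the knockout-labelled library 1 or 3, and to 3 without the knockout-labelled library 2. It was also 2 with library size alone, upper quartile scaling or an adjusted p under 0.01, and 3 with DESeq2. The CHEK2 call was among those lost with DESeq2 (adjusted p = 0.0859), with both of these scalings and without any 1 library other than control 2.

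Of 7 tested H3K9 methyltransferases and cofactors other than SETDB1, 2 rose, 0 fell, and the median log2 fold change was 0.25. SUV39H2, the sister of SUV39H1, rose by 0.29 (adjusted p = 0.0392) and WIZ, a partner of EHMT1 and EHMT2, by 0.20 (adjusted p = 0.0359). Both calls were lost with DESeq2 (adjusted p = 0.0905 and 0.139) and with library size alone. That of WIZ was also lost with upper quartile scaling, no filter on low counts or replicate number as a block (0.0543). Neither held on leaving out control 3 or any 1 knockout-labelled library. SUV39H2 also failed without control 2 and WIZ without control 1. SUV39H1 on chromosome X and EHMT1 on chromosome 9, with log2 fold changes of 0.57 and 0.35 that did not pass, lie on chromosomes with few reads in control 2; both are outside the naming rule and were named after their values were seen.

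Among 10 tested H3K9 demethylases, 2 rose and 1 fell, and the median log2 fold change was 0.16. KDM1A (LSD1) measured 162, 164 and 165 CPM in the controls and, in the knockout-labelled libraries, 210, 201 and 219 CPM, a log2 fold change of 0.36 (adjusted p = 0.00140). KDM3A fell from 76.2 ± 3.89 to 55.0 ± 5.48 CPM (SD, n = 3 each; log2 fold change -0.47, adjusted p = 0.00397). KDM7A rose by 0.53 (adjusted p = 0.0159); it lies on chromosome 7, and its log2 fold change was 0.38 without control 2 (adjusted p = 0.000113). Its call was lost without the knockout-labelled library 2 (0.0597) or 3 (0.0580). KDM4C (-0.17) and PHF2 (0.23) on chromosome 9 and PHF8 (0.21) on chromosome X also lie where control 2 had few reads, and did not pass. PHF8 measured 63.4, 34.1 and 62.9 CPM in the controls and 62.2, 63.5 and 59.8 CPM in the knockout-labelled libraries. All are outside the naming rule and were named after their values were seen. The share of control 2 in the median of this list was not tested.

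NuRD is the remodelling and deacetylase complex that TRIM28 recruits. Of its 14 tested subunits, 3 rose, 2 fell and the median log2 fold change was 0.08. MTA1, a scaffold subunit, measured 107, 116 and 113 CPM in the controls against 143, 139 and 144 CPM (log2 fold change 0.34, adjusted p = 0.00190). GATAD2A rose by 0.27 (adjusted p = 0.00390) and its paralog GATAD2B had a log2 fold change of -0.16 (adjusted p = 0.0423). The GATAD2B call was lost with DESeq2, with no filter on low counts and with replicate number as a block (0.0524). It was also lost on leaving out any 1 library other than control 2. CHD3, an ATPase that binds sumoylated TRIM28, fell from 96.5, 98.1 and 96.7 CPM to 81.1, 74.9 and 83.6 CPM (log2 fold change -0.28, adjusted p = 0.00856). HDAC2 on chromosome 6 rose by 0.30 (adjusted p = 0.0396), or by 0.19 without control 2 (adjusted p = 0.00681), and was not called without any 1 of the knockout-labelled libraries.

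SUMO modification controls TRIM28 activity. Of 16 tested genes of the SUMO pathway, 1 rose, 2 fell and the median log2 fold change was -0.01. SENP7, a SUMO protease known to act on TRIM28 and HP1 alpha, fell from 34.3, 34.2 and 37.0 CPM to 25.3, 28.8 and 25.7 CPM (log2 fold change -0.40, adjusted p = 0.00719). SUMO2 had a log2 fold change of -0.26 (adjusted p = 0.0494) and SAE1, a subunit of the SUMO activating enzyme, of 0.21 (adjusted p = 0.0216). The SUMO2 call was lost with DESeq2, with RLE scaling and without control 1 or any 1 knockout-labelled library, and that of SAE1 with library size alone, with upper quartile scaling and without control 1, control 3 or the knockout-labelled library 1 or 3.

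Among 12 tested HP1 partners, 1 rose and 1 fell, with a median log2 fold change of 0.12. INCENP, of the chromosomal passenger complex, rose from 21.3 ± 1.23 to 27.6 ± 0.367 CPM without overlap (SD, n = 3 each; log2 fold change 0.37, adjusted p = 0.00805). LBR, the lamin B receptor, fell from 100 ± 7.78 to 78.0 ± 5.54 CPM, also without overlap (log2 fold change -0.37, adjusted p = 0.00967). Of 5 tested relatives of TRIM28 and of MORC2, 0 rose and MORC3 fell (log2 fold change -0.16, adjusted p = 0.0480), and their median was 0.02. The MORC3 call was lost with DESeq2, RLE or upper quartile scaling, no filter on low counts and replicate number as a block (0.0630). It was also lost without any 1 library other than control 2. Neither HNRNPA1 nor HNRNPA2B1, whose starts lie near those of CBX5 and CBX3, was called.

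**Figure D5:**
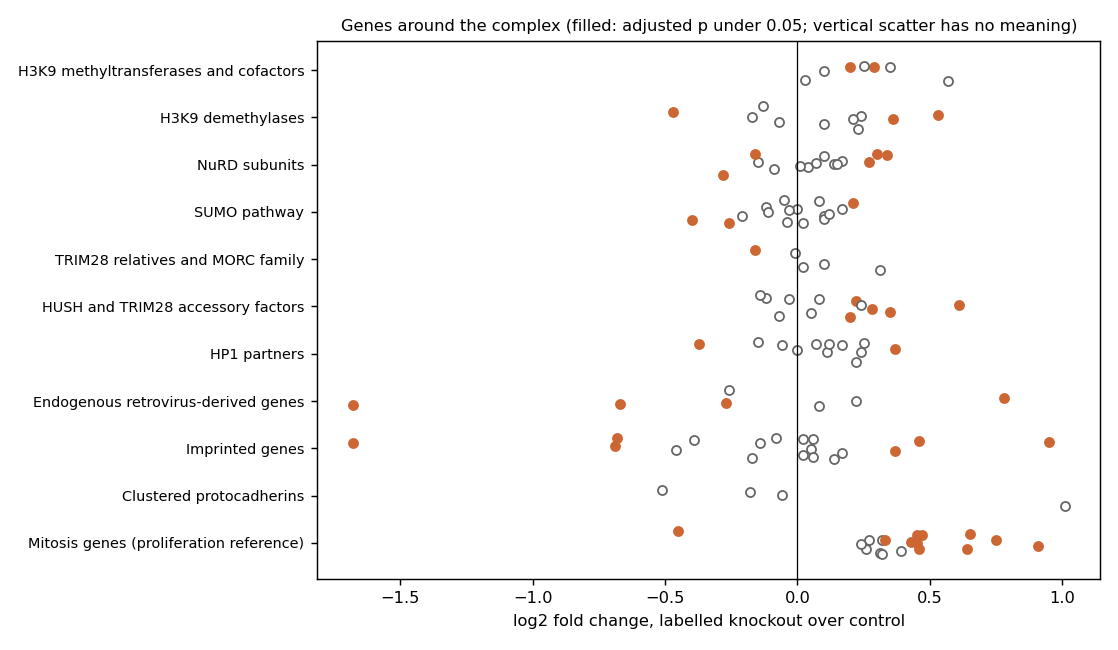
Log2 fold change (horizontal axis) of every tested gene in 11 lists around the machinery, 1 point per gene and 1 row per list; filled points passed edgeR at an adjusted p under 0.05, and height within a row has no meaning. Filled points lie on both sides of 0 in most rows; accessory factors have 5 on the right and 0 on the left, and the mitosis row has 10 on the right and 1 on the left.

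Genes of kinds that TRIM28, SETDB1 and HUSH are known to act on moved in both directions. Of 7 tested genes derived from endogenous retroviruses or retroelements, out of 14 listed, 1 rose, 3 fell and the median log2 fold change was -0.26. ERV3-1 measured 12.8, 10.5 and 13.5 CPM in the controls and, in the knockout-labelled libraries, 20.8, 21.8 and 20.7 CPM (log2 fold change 0.78, adjusted p = 0.00134; 0.68 without control 2). ERVK13-1 fell from 18.1, 18.9 and 21.2 CPM to 12.9, 11.2 and 12.3 CPM (log2 fold change -0.67, adjusted p = 0.00202). ERVMER34-1 had a log2 fold change of -0.27 (adjusted p = 0.0420), a call lost with DESeq2, with no filter on low counts and without any 1 library other than control 2. Counts by gene symbol do not cover retroelement copies outside these genes.

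TRIM28 also protects imprinted loci. Among 18 tested imprinted genes of 23 listed, 3 rose, 3 fell and the median log2 fold change was 0.02. PEG10, a retroelement-derived gene counted in both lists, had 7.41, 4.80 and 7.02 CPM in the controls and, in the knockout-labelled libraries, 2.30, 1.21 and 2.42 CPM (log2 fold change -1.68, adjusted p = 0.00288; -1.85 without control 2). Its neighbour SGCE fell by 0.68 on the log2 scale (adjusted p = 0.0139). At the H19 and IGF2 locus the genes moved in opposite directions: H19 rose from 3.62 ± 0.588 to 6.97 ± 0.0311 CPM (log2 fold change 0.95, adjusted p = 0.00263), and IGF2 fell from 7.90, 8.16 and 8.36 CPM to 5.14, 3.76 and 6.15 CPM (log2 fold change -0.69, adjusted p = 0.0208). ZDBF2 rose by 0.37 (adjusted p = 0.00347), and GRB10 on chromosome 7 by 0.46 (adjusted p = 0.0133; 0.34 without control 2). The IGF2 call was lost without control 1, control 3 or the knockout-labelled library 1, the SGCE call without control 1 or the knockout-labelled library 1 or 2, and the GRB10 call without the knockout-labelled library 1 or 3. Of 53 clustered protocadherins listed, known targets of SETDB1, 4 were tested and 0 were called.

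A proliferation reference was higher beside these results. Of 18 mitosis genes, 10 rose and 1, CDK1, fell (log2 fold change -0.45, adjusted p = 0.0395), with a median of 0.41; FOXM1 (0.91), AURKB (0.75) and NUSAP1 (0.65) led. The number that rose was 17 without control 2, 5 without control 1, and 5, 5 and 6 without knockout-labelled library 1, 2 and 3; it was 6 with library size alone and 5 at an adjusted p under 0.01. The CDK1 call was lost without control 1 or any 1 knockout-labelled library. Their mean centred log2 CPM was -0.31, 0.09 and -0.40 in the controls and 0.17, 0.33 and 0.13 in the knockout-labelled libraries, so control 2 stood nearest to the knockout-labelled libraries. The part of this shift in the changes of TRIM28, CBX5 and INCENP was not tested; TRIM28 in control 2 was at 320 CPM, against 307 and 310 CPM in the other controls.

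Reads in genes ranged from 13424356 to 17012910 per library, and 3 reads corresponded to 0.176 to 0.223 CPM. Each of the 10 genes had at least 520 reads in every library. Control 2 was short of reads on chromosomes 6, 7, 8, 9, X, Y and M, at 88.0% to 53.3% of the median level in the other controls, and 102% to 104% on the rest; of the 10 genes only CBX3 lies on one of them. Of 12 markers of colorectal epithelium 7 were tested. All 12 together summed to 2714 to 2847 CPM in the controls and 2687 to 2810 CPM in the knockout-labelled libraries. EPCAM and KRT8 were high, CDX1 was at 0 in all libraries and CEACAM5 at 0 in 5 of them. GPA33, VIL1 and LGALS4 had at most 6 reads in any library. KRT18 was the only epithelial marker called, at 196, 226 and 208 CPM in the controls against 191, 170 and 174 CPM (log2 fold change -0.23, adjusted p = 0.0394). Of 6 leukocyte markers 0 were tested (summed 1.17 to 1.42 against 0.906 to 1.63 CPM, CD3E at 0 in all), and 5 endothelial markers summed to 2.22 to 3.06 against 3.08 to 3.66 CPM, with PECAM1 at 0 in all. The 7 fibroblast markers summed to 75.5 to 96.2 against 76.0 to 97.5 CPM, mostly COL1A1. In bulk RNA, fewer cells of a kind and less RNA per cell cannot be told apart.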

How the data were processed

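Each library has 1 deposited table of unnormalised read counts, listed by gene symbol. The submitters' processing notes name TopHat2 2.0.11 and HTSeq with hg19 and GRCh37; for HTSeq, neither version nor strand use is stated there. The 5 summary lines, 31.7% to 32.4% of listed reads, stayed out of library sizes and tests. From these counts, edgeR 4.0.16 (R 4.3.3; TMM scaling, filterByExpr with minimum count 10 and total 15, quasi-likelihood test) compared the groups over all 16369 tested genes, with Benjamini-Hochberg adjustment and calls at an adjusted p under 0.05. CPM uses TMM-scaled library sizes. Intervals are at 95%, and floors cover counting error only. Positions and exon lengths came from GENCODE 29 on GRCh38 by symbol, another build than that of the counts, and promoters from RefSeq (GRCh38.p14). DESeq2 1.42.0, limma-voom (3.58.1), other scalings, filters and left-out libraries were alternatives. The test was tested on simulated data. No replicate pair agreed within sampling noise. The chi-square per degree of freedom was 19.8 for pairs with control 2 and 2.20 to 3.98 for the rest.

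The members and lists were chosen with earlier results of these data known. Genes named were the members, ZFP90, the 3 called genes of largest change per list and direction, the 3 of most like profile per called member, and annotated neighbours and copies, and beyond that rule the genes said to be so and the markers of cell types; some neighbours and copies with few or no reads are not described.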

Additional observations from a re-analysis of the deposited data

How the results depend on the processing

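TRIM28 was called higher under all 16 alternatives, with log2 fold changes from 0.22 to 0.30 and adjusted p from 5.03e-05 to 0.0394, and no member was called lower in any. The number of members called higher was 2, and 1 (TRIM28) with library size alone, upper quartile scaling, DESeq2, no filter on low counts or an adjusted p under 0.01. Leaving out 1 library gave 1 to 2. These were TRIM28 and CBX5 without control 2, TRIM28 and CBX1 without the knockout-labelled library 2, and TRIM28 alone otherwise. Over all genes, 1593 were called higher and 1861 lower. Library size alone gave 986 and 2343, so that 29.6% of calls were higher against 46.1%, and moved the median of all genes to -0.06. An adjusted p under 0.01 gave 618 and 869, an offset of control 2 by chromosome 2400 and 2496, and leaving out 1 library 756 to 2261 and 1025 to 2361. The replicate block gave 1623 higher, 1840 lower and 2 members. Deviations of same-numbered libraries correlated at 0.05, 0.14 and 0.09, and those of differently numbered ones at -0.12 to 0.04. All were weak, and whether the numbers mark pairing was not tested.

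Signs that turned were all of values that did not pass. ATF7IP was -0.01 with library size alone. HNRNPA2B1 was -0.06 with library size alone, -0.02 with upper quartile scaling, -0.00 with a 1 CPM filter and -0.10 with the chromosome offset; HNRNPA1 was 0.00 without a filter and 0.01 with that offset. Over left-out libraries, log2 fold changes ran from -0.10 to 0.04 for CBX3, -0.11 to 0.03 for MORC2, -0.07 to 0.05 for HNRNPA2B1, -0.07 to 0.05 for HNRNPA1 and -0.09 to 0.00 for ZCRB1, and ratio differences from -0.08 to 0.04 for CBX1 to CBX5 and -0.05 to 0.02 for CBX3 to HNRNPA2B1. Leaving libraries out of the ratios, and the transcript length, were chosen after seeing the data. The cause of these shifts was not tested.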
